A study of Oryza sativa with 8 samples.

Results

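The male-sterile rice line XQZ-A/MB was compared with its fertile maintainer line Meixiang B (MB) on 4 of the 8 arrays of the series, chosen by the line that the array labels give, with 2 arrays for XQZ-A/MB and 2 for MB. All 40832 probes of the array were used, in both directions. XQZ-A/MB carries cytoplasm of the DA type of cytoplasmic male sterility (CMS) and was made by repeated backcrossing to MB, so its nuclear genome is close to that of MB but need not be identical. MB shares the nuclear background, carries a fertile cytoplasm and was the recurrent parent. The other 4 arrays hold D62-A/MB (D type) and ZS97-A/MB (WA type, from ZhenShan97A), made in the same way, with 2 arrays each. By the study's nuclear markers, the share of the MB genome was highest in XQZ-A/MB and lower in D62-A/MB and ZS97-A/MB. Nuclear differences that remain between the lines cannot be told apart from those of the cytoplasm. The labels name the tissue as young panicle and the study's methods as anther, both at the uninucleate microspore stage, and the RNA can have come from either. The study describes the 2 arrays of each line as biological replicates.

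In CMS, a gene of the mitochondrial genome blocks the formation of functional pollen, while the female organs stay fertile. The tapetum is the innermost cell layer of the anther wall. It feeds the microspores, supplies lipids and sporopollenin precursors for the pollen wall, and then degenerates. In sporophytic CMS, to which the study assigns these lines, abortion occurs early, around the uninucleate stage.

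Which arrays hold XQZ-A/MB and which D62-A/MB is in doubt. Differences between the lines and MB were compared with those of a table of the study, and of its 620 rows, 2 matched a probe within 0.005 log2 units with the names as labelled, whereas 588 matched with the names XQZ-A and D62-A exchanged. The names used here are those of the array labels. If the labels are exchanged, the values given for XQZ-A/MB belong to D62-A/MB and the reverse, while ZS97-A/MB and MB keep theirs. The arrays named XQZ-A would then hold a line with a lower share of the MB nuclear genome.

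The deposited intensities were linear. Array medians were 7.65 to 8.15 for the 4 arrays of replicate 1 and 19.2 to 20.6 for the 4 arrays of replicate 2, and 42.5% to 65.2% of the probes of an array lay at or below 16. Values below 16 were therefore set to 16 before log2 transformation, and XQZ-A/MB was set against MB within each replicate number. limma was fitted to the 20416 probes with the higher mean intensity on all 8 arrays, with the line and the replicate number as terms. A probe bright on the MB arrays alone can pass that filter through them and then count as lower. A probe counted as called where it changed at least 2-fold with a Benjamini-Hochberg adjusted p under 0.01. As a description across the probes tested, log2 values of XQZ-A/MB and MB with the same replicate number were more alike (r = 0.944 and 0.901) than those of the 2 arrays of XQZ-A/MB (r = 0.874) or of MB (r = 0.830). A log2 fold change is XQZ-A/MB over MB, given with its standard error (SE, 2 arrays per line). Where both arrays of a line lie at or below 16 the change is a lower bound.

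Of the probes that passed the test, most were lower in XQZ-A/MB. limma called 358 probes lower (1.75% of those tested) and 63 higher (0.309%), although over all probes tested 9478 log2 fold changes lay below 0 and 10907 above. The lower probes had a median log2 fold change of -1.68 and reached -4.98, and the higher probes had a median of 1.35 and reached 3.30. A change of at least 4-fold was found for 120 of the lower and 10 of the higher probes, and at least 16-fold for 14 lower and 0 higher probes. The median over all probes tested was 0.02, on values that the labels name as MAS5 output. Without any model and over all 40832 probes, 507 probes (1.24%) were at least 2-fold lower and 106 (0.26%) at least 2-fold higher than MB within both replicate numbers. Of the probes called lower, 32 lay at or below 16 on both arrays of XQZ-A/MB, so that their full change is not known, and 78 lay there on 1 array. In all 421 called probes the differences within both replicate numbers had 1 sign, and in 406 the lines did not overlap. The shares of both traits over all probes tested were not counted, so whether either sets a called gene apart is not known.

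The calls rested on the settings and arrays of the fit. Without the replicate block, with a floor of 32 or with the arrays of XQZ-A/MB and MB alone, limma called 0 probes (928, 2991 and 3876 at an unadjusted p under 0.05), and with all 40832 probes it called 1 lower and 0 higher. With either array of ZS97-A/MB or of XQZ-A/MB left out, limma called 0 probes at this threshold (2643 to 4260 at an unadjusted p under 0.05), and without MB replicate 2 it called 57 lower and 2 higher. The t test of the study's methods called 0 probes after adjustment and 931 at an unadjusted p under 0.05.

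**Figure D1:**
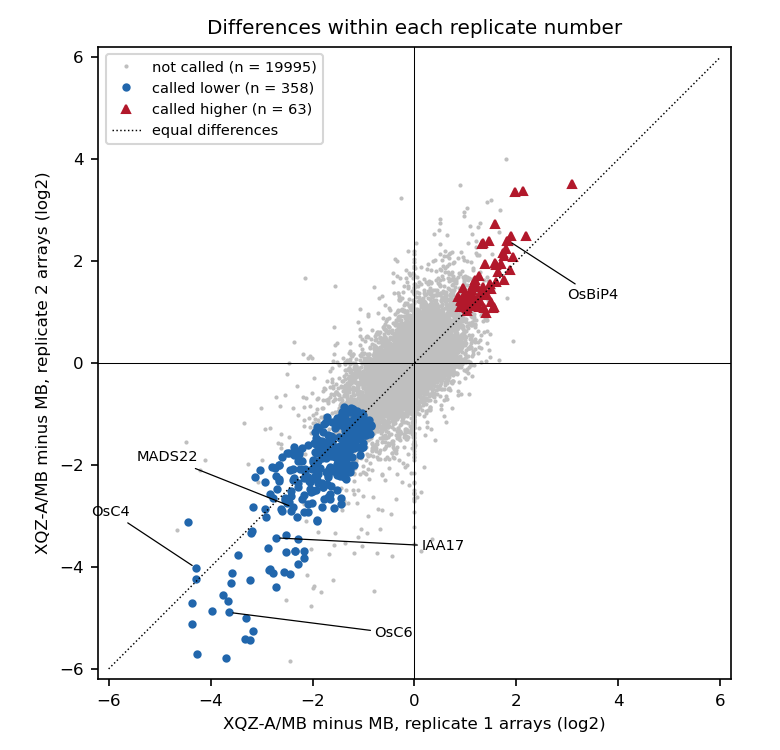
Each point is a probe tested, with the log2 difference of XQZ-A/MB minus MB between the arrays of replicate 1 on the x axis and between those of replicate 2 on the y axis, for 358 probes called lower (blue circles), 63 called higher (red triangles) and those not called (grey). The called probes lie at the lower left and upper right, and the lower ones reach further from 0, to a log2 fold change of -4.98.

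Of the called probes, 235 lower and 40 higher ones lie in 1 annotated gene, and they stand for 234 and 39 genes. Only 52 of these lower genes and 6 of the higher genes have a name other than a locus number. With 1 probe per gene, 229 of 9960 genes tested were called lower (2.3%) and 39 higher (0.392%). By the chromosomes of the RefSeq annotation, the share called lower was highest on chromosome 4 (3.15% of 890 genes) and lowest on chromosome 11 (0.807% of 372 genes). On chromosome 4, LOC4335744, LOC4335746 and LOC4335748 are neighbours among the genes tested and were all called lower, at log2 fold changes of -3.11, -1.65 and -1.11.

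The 2 genes with the deepest falls among named genes are known from the tapetum. OsC6 encodes a lipid transfer protein that the tapetum secretes and that takes part in building the pollen wall. Its intensity was 33.2 and 69.5 on the arrays of XQZ-A/MB, against 415 and 2063 on those of MB. The 2 lines were far apart on both pairs of arrays, and the log2 fold change was -4.27 (SE 0.35, limma adjusted p = 0.00203), a 19.3-fold fall. OsC4, another gene expressed in the tapetum, had 33.7 and 78.0 in XQZ-A/MB, against 661 and 1263 in MB. It fell by 4.15 on the log2 scale (SE 0.22, limma adjusted p = 0.00104), and as for OsC6 the highest value of XQZ-A/MB lay far below the lowest of MB.

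The other tapetum and pollen wall genes of the list, which holds regulators as well as wall proteins, did not pass the test. The list holds only genes matched by name and leaves out many known ones. The study reports others as lower in all its male-sterile lines, among them an ABC-2 type transporter and a male sterility protein, and TDR as well. Of the 9 listed genes with a probe, 7 were bright enough to be tested, and 2 were called lower and 0 higher. Over all genes tested, 2.3% were called lower and 0.392% higher. The median log2 fold change of the list was -0.73, beside 0.01 over all genes. TDR and MSP1, also of the list, were brightest on MB replicate 2 (53.0 and 42.6) and entered the test through it. Genes that enter in this way tend to count as lower, so the median does not show that the list as a whole was lower. How far these genes move the median was not tested. The fasciclin-like glycoprotein MTR1 had 121 and 153 in XQZ-A/MB, against 228 and 224 in MB (limma adjusted p = 0.0502). TDR, a bHLH factor that drives tapetum degeneration, had 3.38 and 8.61 in XQZ-A/MB and 15.0 and 53.0 in MB, so that only 1 array, MB replicate 2, lay above 16 and the log2 fold change of -0.86 rests on it (limma adjusted p = 0.277). The regulator GAMYB was level, with 168 and 189 in XQZ-A/MB and 168 and 188 in MB. UDT1, a bHLH factor needed for early tapetum development, was at or below 16 on all 8 arrays. In tissue of this kind, fewer cells of a type and less RNA per cell cannot be told apart.

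The summed intensity of the tapetum list was 429 and 663 in XQZ-A/MB, against 1568 and 4012 in MB. That of the MADS genes of stamen and lodicule, over 3 genes, was 530.0 and 860.2 in XQZ-A/MB and 868.8 and 1471 in MB. For 2 carpel and ovule genes it was 25.2 and 55.9 in XQZ-A/MB and 46.9 and 100.1 in MB. The difference in that sum came from DL alone. MADS21, its other gene, was faint and slightly higher in XQZ-A/MB (5.14 and 16.02, against 4.03 and 12.8 in MB). For the 4 MADS genes of lemma and palea the sum was 504 and 732 in XQZ-A/MB, against 637 and 732 in MB. For 6 genes of leaf photosynthesis it was 163 and 481 in XQZ-A/MB, against 205 and 566 in MB. Of the tapetum list, OsC6 and OsC4 made up most of the difference, and with both taken out, a split chosen after the values were seen, its other 7 genes summed to 362 and 515 in XQZ-A/MB and 492 and 686 in MB. Within each replicate number the sums of XQZ-A/MB were below those of MB in every list but that of lemma and palea, which was level in replicate 2. Of 5 meiosis genes, PAIR1 and PAIR3 lay at or below 16 on all arrays, and the sum over the list was 36.7 and 55.8 in XQZ-A/MB and 51.6 and 72.4 in MB. Whether the makeup of the tissue had a part in the changes below was not tested.

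**Figure D2:**
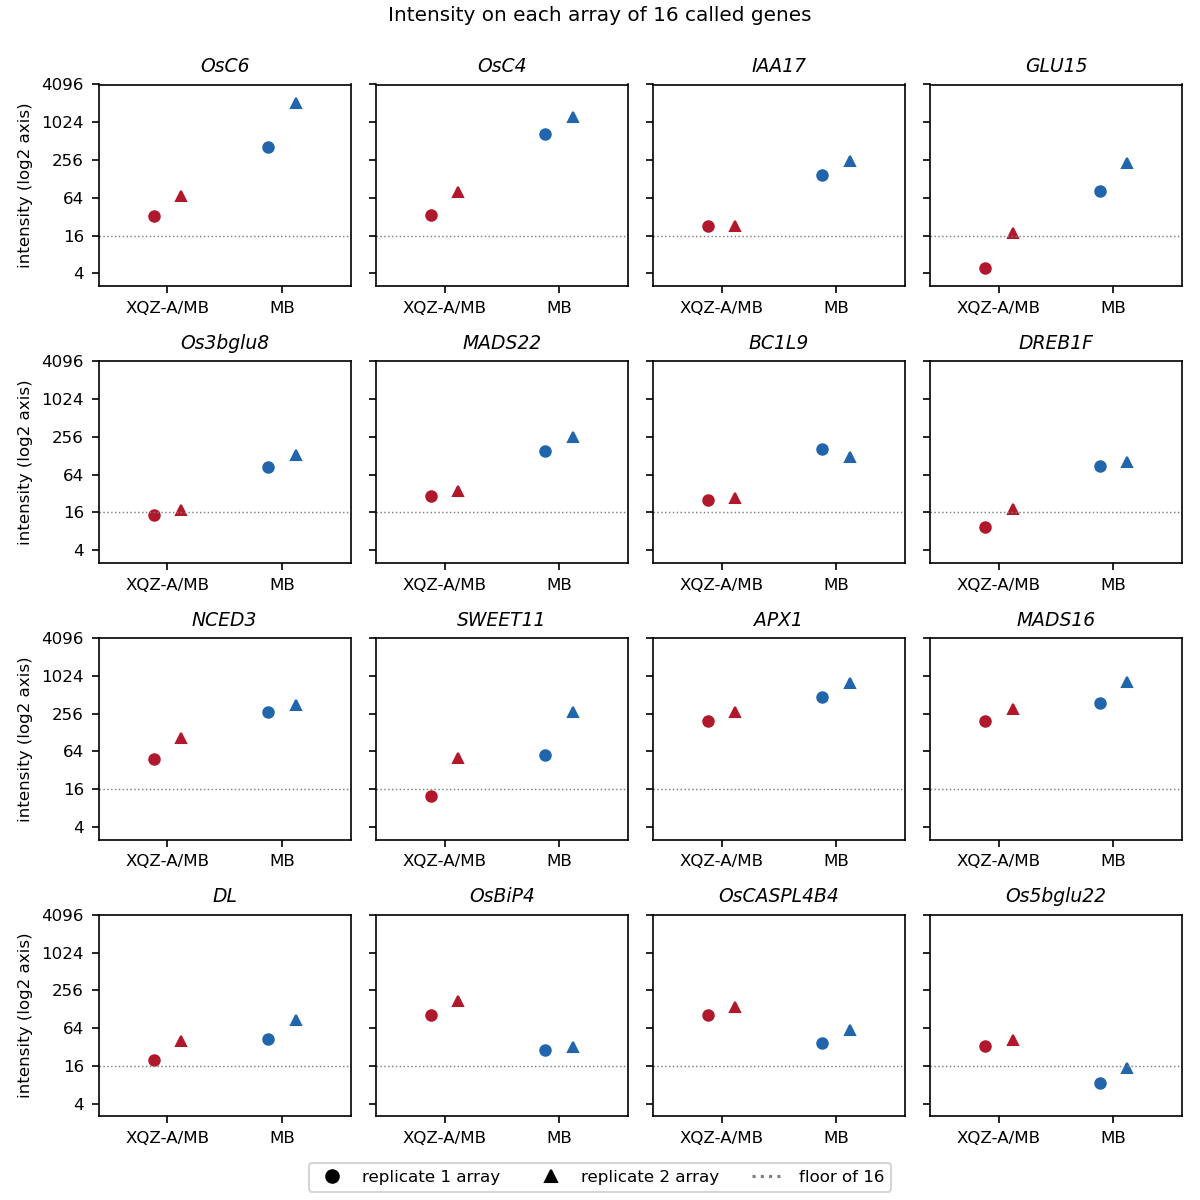
Intensity (log2 axis) of 16 called genes on each array of XQZ-A/MB (red, left) and MB (blue, right), with circles for replicate 1, triangles for replicate 2 and the floor of 16 as a dotted line. In OsC6, XQZ-A/MB has 33.2 and 69.5, against 415 and 2063 in MB, and in the 3 genes called higher at the lower right both arrays of XQZ-A/MB lie above both of MB.

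Transcription factors of the MADS family, which set floral organ identity, changed in both directions. MADS22, a member of the clade that acts in meristem identity, had 28.9 and 35.6 in XQZ-A/MB, against 151 and 252 in MB. Its log2 fold change was -2.61 (SE 0.21, limma adjusted p = 0.0017). MADS16, the class B gene that specifies stamens and lodicules, had 197 and 304 in XQZ-A/MB and 381 and 807 in MB. The lines did not overlap for either gene, and MADS16 fell by 1.18 on the log2 scale (SE 0.16, limma adjusted p = 0.00894). MADS5, a gene of the SEPALLATA type, was called higher, with 45.0 and 37.5 in XQZ-A/MB, against 23.9 and 14.7 in MB (log2 fold change 1.07, limma adjusted p = 0.00887). Of 15 MADS genes tested, 2 were called lower and 1 higher, beside 2.3% and 0.392% of all genes tested, at a median of -0.37. MADS2, also of class B, had 329 and 541 in XQZ-A/MB and 471 and 628 in MB, which did not pass (limma adjusted p = 0.265). DL, which specifies the carpel, had 20.03 and 39.9 in XQZ-A/MB and 42.9 and 87.3 in MB and was called lower at -1.11.

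Single members of other factor families were called. Over all genes tested, 2.3% were called lower and 0.392% higher, so that 0 or 1 call in lists of this size says little about a family. DREB1F, of the cold- and drought-related CBF group, had 9.36 and 18.2 in XQZ-A/MB, against 86.1 and 103 in MB. It fell by 2.46 on the log2 scale, the only one called of 11 DREB and ERF genes. OsHox14 lay at or below 16 on both arrays of XQZ-A/MB, against 36.8 and 48.4 in MB, so that its log2 fold change of -1.40 is a lower bound on the fall. It was the only one called of 31 homeobox genes, and was brightest on the MB arrays, through which it entered the test. The gene listed simply as bHLH had 41.1 and 64.3 in XQZ-A/MB, against 84.1 and 169 in MB, and was the only one called of 13 bHLH genes. NAC2 had 40.9 and 67.2 in XQZ-A/MB, against 21.6 and 28.9 in MB, and was called higher (log2 fold change 1.07, limma adjusted p = 0.00848). The log2 fold change was above 0 in 7 of 8 NAC genes, beside 5149 of all 9960 genes tested, with a median of 0.65, but NAC2 was the only one called. NAC45 had 87.7 and 125 in XQZ-A/MB and 44.5 and 11.4 in MB (limma adjusted p = 0.0699). OsbZIP70, a bZIP factor of the TGA type, was called higher at 1.16, as the only one of 47 zinc finger, bZIP and related factors. limma called 0 of 6 WRKY genes and 0 of 6 MYB genes, of which 4 and 0 had an unadjusted p under 0.05.

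Of 28 auxin genes tested, 24 had a log2 fold change below 0, beside 4798 of all 9960 genes tested, and the median was -0.62. Only 2 passed the test, both lower, beside 2.3% called lower over all genes. IAA17, an Aux/IAA repressor of the auxin response, had 22.4 and 22.6 in XQZ-A/MB, against 148 and 244 in MB. Its log2 difference from MB was -2.72 within replicate 1 and -3.43 within replicate 2. The log2 fold change was -3.08 (SE 0.26, limma adjusted p = 0.00209), an 8.43-fold fall. The auxin efflux carrier PIN3A had 11.3 and 22.1 in XQZ-A/MB, against 60.3 and 67.0 in MB (log2 fold change -1.76, SE 0.20). IAA30 came close, with 12.3 and 20.3 in XQZ-A/MB and 83.8 and 61.8 in MB (limma adjusted p = 0.0118). SAUR39 pointed the other way at 1.67, with 47.0 and 69.1 in XQZ-A/MB and 19.96 and 7.68 in MB, and did not pass (limma adjusted p = 0.0166).

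Genes of both synthesis and breakdown of abscisic acid (ABA) were called lower. NCED3, a dioxygenase at the committed step of ABA synthesis, had 48.4 and 103 in XQZ-A/MB, against 274 and 352 in MB. It fell by 2.13 on the log2 scale (SE 0.29, limma adjusted p = 0.0083). ABA8OX2 and ABA8OX1, hydroxylases that break ABA down, were called lower as well, at -1.45 and -1.05. ABA8OX1 had 65.2 and 102 in XQZ-A/MB, against 147 and 195 in MB. MHZ4, a plastid protein needed for ABA synthesis that also shapes the ethylene response, had 76.6 and 92.4 in XQZ-A/MB, against 229 and 306 in MB, a log2 fold change of -1.66. Among genes that respond to ABA or act in its signalling, OsPM19L1 had 104 and 219 in XQZ-A/MB and 272 and 833 in MB (-1.66), and the phosphatase OsPP2C21 had 11.03 and 19.8 in XQZ-A/MB and 40.4 and 49.7 in MB (-1.33). In the ABA list, 5 of 59 genes were called lower and 0 higher, beside 2.3% and 0.392% of all genes tested, with a median of -0.19. The phosphatase OsPP2C11 had the highest value of the list, 1.00, and did not pass.

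Of 24 cellulose and COBRA-like genes of the cell wall, 3 were called lower and 0 higher, beside 2.3% and 0.392% of all genes tested. GLU15, an endo-glucanase, had 4.82 and 17.5 in XQZ-A/MB, against 81.2 and 226 in MB. With 1 array of XQZ-A/MB below the floor, its log2 fold change was -3.02 (SE 0.31, limma adjusted p = 0.00344). The COBRA-like gene BC1L9 had 24.7 and 26.6 in XQZ-A/MB, against 163 and 124 in MB, and fell by 2.47 on the log2 scale (SE 0.16). CESA6, a cellulose synthase of the primary wall, had 106 and 200 in XQZ-A/MB, against 209 and 500 in MB, a smaller log2 fold change of -1.15, and the 2 lines nearly met. The median of the list was -0.03, beside 0.01 over all genes. CSLA1, with 12.4 and 18.1 in XQZ-A/MB and 115 and 43.7 in MB, did not pass (limma adjusted p = 0.0298).

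Expansins loosen the cell wall during growth, and 18 of 24 were below 0, beside 4798 of all 9960 genes tested, at a median of -0.30. EXPA5 had 23.9 and 51.9 in XQZ-A/MB, against 83.5 and 133 in MB, and was called lower at -1.58. EXPA2, with 10.8 and 35.3 in XQZ-A/MB, against 37.1 and 83.8 in MB, was called lower at -1.23. No expansin was called higher. Of 11 beta-glucosidases, which release sugars from glucosides, 2 were lower and 1 was higher. Over all genes tested, 2.3% were called lower and 0.392% higher. Os3bglu8 had 14.6 and 17.7 in XQZ-A/MB, against 85.4 and 132 in MB (log2 fold change -2.66, SE 0.15, limma adjusted p = 0.00104). Os1bglu4 lay at 8.93 and 8.95 in XQZ-A/MB, below the floor, against 51.8 and 75.5 in MB, so that its fall is at least 3.91-fold. It lay below 16 in D62-A/MB and ZS97-A/MB as well, so that it entered the test through MB. Os5bglu22 was the reverse, with 33.5 and 41.0 in XQZ-A/MB, against 8.48 and 14.8 in MB, where both arrays lay below the floor, so that its log2 fold change of 1.21 is a lower bound on the rise. FOR1, an inhibitor of polygalacturonase that takes part in floral organ number, had 96.0 and 149 in XQZ-A/MB, against 330 and 946 in MB (-2.22).

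**Figure D3:**
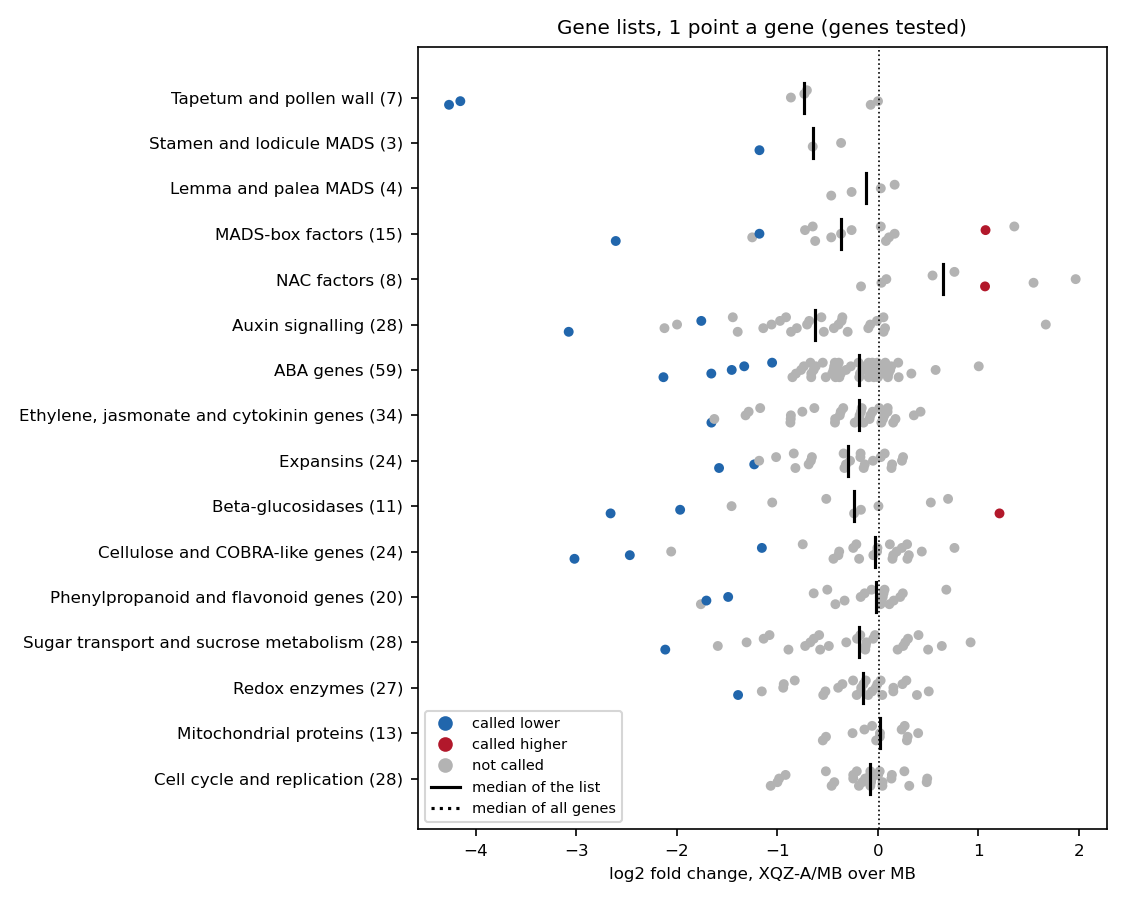
Log2 fold change of XQZ-A/MB over MB for each gene tested in 16 lists (1 point a gene, number tested in brackets), with called genes in blue (lower) and red (higher), the median of each list as a bar and the median of all genes as a dotted line. The auxin list has its median at -0.62 and the NAC list at 0.65, and most points of every list were not called.

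Of the genes tested, 1 of 28 for sugar, 2 of 20 for phenylpropanoids and 1 of 27 redox enzymes were called lower, and 0 higher. Over all genes tested, 2.3% were called lower and 0.392% higher, and so few calls say little about a list. SWEET11, a sucrose transporter needed for pollen and grain filling, had 12.5 and 50.02 in XQZ-A/MB, against 55.5 and 271 in MB. It fell by 2.11 on the log2 scale (SE 0.29, limma adjusted p = 0.00852), and the highest value of XQZ-A/MB lay just below the lowest of MB. It was the only gene called of 28 sugar genes, of which 20 were below 0, beside 4798 of all 9960 genes tested. OsTPP1, a trehalose phosphate phosphatase, had 31.7 and 43.8 in XQZ-A/MB and 90.3 and 140 in MB and just missed the threshold (limma adjusted p = 0.0107). Of 20 phenylpropanoid and flavonoid genes, 4CL5 and PAL06 were called lower. PAL06, a phenylalanine ammonia-lyase, had 23.4 and 27.5 in XQZ-A/MB, against 56.2 and 90.1 in MB (-1.49), and the coumarate ligase gene 4CL5 had 14.8 and 21.2 in XQZ-A/MB, against 47.2 and 76.3 in MB (-1.71). The chalcone synthase gene CHS stood as low, at -1.76, but with a wide error (SE 0.53, limma adjusted p = 0.102).

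APX1, a cytosolic ascorbate peroxidase that removes hydrogen peroxide, was called on both of its probes. The brighter had 191 and 275 in XQZ-A/MB, against 470 and 771 in MB, and the other 108 and 152 in XQZ-A/MB, against 252 and 427 in MB. Their log2 fold changes of -1.39 and -1.35 lay within the SE of each other (0.13 and 0.15). APX2 had 227 and 380 in XQZ-A/MB and 518 and 827 in MB and stood just outside the threshold (limma adjusted p = 0.0109). APX1 was the only gene called of 27 redox enzymes, which is near the 2.3% called lower over all genes tested. The metallothionein MT2B had 25.1 and 67.0 in XQZ-A/MB and 93.1 and 671 in MB, a log2 fold change of -2.61 that did not pass (SE 0.43, limma adjusted p = 0.0158).

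Of 13 nuclear genes for mitochondrial proteins, limma called 0 (2 at an unadjusted p under 0.05), and 6 lay below and 7 above 0. The alternative oxidase gene AOX1, a marker of mitochondrial stress, had 400 and 378 in XQZ-A/MB and 309 and 352 in MB, a log2 fold change of 0.24 (SE 0.17, limma adjusted p = 0.517). The study reports an alternative oxidase gene, AOX1a, as higher in all the CMS lines it compared. Whether AOX1 here is that same gene was not checked. limma called 0 of 28 cell cycle and replication genes and 0 of 29 heat shock genes (8 in each list at an unadjusted p under 0.05), at medians of -0.07 and -0.11. With 2.3% of all genes tested called lower and 0.392% higher, 0 calls in lists of this size say little. In the remaining lists, the aquaporin NIP1-1 was lower at -1.85, with 57.3 and 62.9 in XQZ-A/MB, against 246 and 191 in MB. The calmodulin-like gene CML16 was lower at -1.56, the sterol methyltransferase gene Smt1-1 at -1.31 and the receptor-like kinase gene ER2, also listed as RLCK85, at -2.95. No array probe was tied to a mitochondrial gene.

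XBOS36, which is in no list but among the 12 named genes with the lowest values, had 16.4 and 29.1 in XQZ-A/MB, against 72.8 and 128 in MB (-2.14). Further named genes called lower belong to no list and were chosen after their values were seen. PAS2A, a dehydratase of very-long-chain fatty acid elongation, had 25.2 and 58.1 in XQZ-A/MB, against 95.5 and 284 in MB (-2.11). The ATP citrate lyase subunit gene ACLA-2, whose enzyme supplies acetyl-CoA, had 19.1 and 40.3 in XQZ-A/MB, against 43.3 and 128 in MB (-1.42). The phospholipase A2 gene pla2-II was lower at -1.31, DXPS, the entry enzyme of plastid isoprenoid synthesis, at -1.12, and the phytoene synthase gene PSY3 at -1.03. The dehydrin LIP9 had 147 and 155 in XQZ-A/MB, against 387 and 725 in MB (-1.81). In all of these both arrays of XQZ-A/MB lay below the array of MB with the same number.

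The largest changes of all were in probes that could not be tied to 1 gene or in genes known only by a locus number. Probe 16483945 had 11.7 and 16.9 in XQZ-A/MB, against 306 and 884 in MB, a log2 fold change of -4.98 (SE 0.33). Probe 16536082 had 24.2 and 33.4 in XQZ-A/MB, against 501 and 1157 in MB (-4.74). Probe 16396884 lay below the floor on both arrays of XQZ-A/MB, against 206 and 888 in MB, so that its fall is at least 26.8-fold. LOC4346354 had 21.7 and 61.7 in XQZ-A/MB, against 446 and 1618 in MB, and was the gene with the deepest fall (-4.54, SE 0.26, limma adjusted p = 0.00104). All of these separated the lines by more than any spread between arrays of 1 line.

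Among the probes called higher, only 6 genes had a name. OsBiP4, a chaperone of the HSP70 type in the endoplasmic reticulum, had 102 and 171 in XQZ-A/MB, against 28.3 and 32.5 in MB. It rose by 2.12 on the log2 scale (SE 0.27, limma adjusted p = 0.00695), a 4.35-fold change, with no overlap of the lines. OsCASPL4B4, a CASP-like membrane protein, had 104 and 137 in XQZ-A/MB, against 37.1 and 59.5 in MB (1.35, SE 0.14, limma adjusted p = 0.00368). The other 4 were Os5bglu22, OsbZIP70, MADS5 and NAC2. Probe 16490960 showed the largest rise, with 205 and 208 in XQZ-A/MB, against 24.2 and 18.1 in MB (3.30, SE 0.20). Probes 16553276 and 16487971 followed at 2.75 and 2.67, LOC4328219 at 2.34 and probe 16424778 at 2.19. In LOC4328219 the arrays of XQZ-A/MB had 277 and 360 against 60.8 and 63.5 in MB.

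To see which of these changes were particular to XQZ-A/MB, it was set against the mean of D62-A/MB and ZS97-A/MB, a comparison in which the MB arrays cancel. Only 2 probes were called lower (0.0098% of those tested) and 1 higher (0.0049%), and 4523 had an unadjusted p under 0.05. LOC4343000 had 12.9 and 27.3 in XQZ-A/MB, against 39.1 and 66.8 in D62-A/MB, 65.6 and 114 in ZS97-A/MB and 40.6 and 77.8 in MB. It was lower than in the other male-sterile lines by 1.67 on the log2 scale (difference -1.67, SE 0.11, limma adjusted p = 0.00948). Probe 16428975 had 27.7 and 60.4 in XQZ-A/MB, against 79.4 and 182 in D62-A/MB, 211 and 370 in ZS97-A/MB and 151 and 257 in MB, a difference of -2.16 (limma adjusted p = 0.00948). Probe 16490960, given above, had 40.9 and 46.5 in D62-A/MB and 12.6 and 21.4 in ZS97-A/MB, a difference of 2.86 (limma adjusted p = 0.00948). For these 3 probes both arrays of XQZ-A/MB lay outside the range of the 6 other arrays. These calls were lost without either array of XQZ-A/MB, of ZS97-A/MB or of MB and without D62-A/MB replicate 2 (0 called), and without D62-A/MB replicate 1 limma called 44 lower and 21 higher.

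No gene with a name passed that threshold, and at an adjusted p under 0.05 limma gave 155 probes lower (0.759%) and 51 higher (0.25%). OsC4 had 138 and 260 in D62-A/MB and 71.5 and 243 in ZS97-A/MB, so that its level in XQZ-A/MB, given above, was lower than in either (difference -1.62, SE 0.19, limma adjusted p = 0.0191). OsC6 did not separate the male-sterile lines, with 32.1 and 84.9 in D62-A/MB and 20.8 and 123 in ZS97-A/MB (difference -0.09, SE 0.31, limma adjusted p = 0.882). IAA17 had 87.2 and 114 in D62-A/MB and 38.1 and 86.3 in ZS97-A/MB, each above XQZ-A/MB on the array of the same number (difference -1.75, limma adjusted p = 0.0239). PAL06 stood at 46.4 and 91.6 in D62-A/MB and 68.5 and 112 in ZS97-A/MB, close to MB, and was lower in XQZ-A/MB by a difference of -1.58 (limma adjusted p = 0.0165). The bHLH gene (-1.40), MADS22 (-1.15), XBOS36 (-1.17) and OsPP2C21 (-1.23) were below the mean of the other male-sterile lines at the same threshold. Their falls from MB were shared in part. Over MB, MADS22 stood at -1.73 in D62-A/MB and -1.19 in ZS97-A/MB, and XBOS36 at -1.62 and -0.33. The bHLH gene stood at -0.31 in D62-A/MB and 0.68 in ZS97-A/MB, and OsPP2C21 at -0.55 and 0.35.

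Further genes past this looser threshold are given here, chosen after their values were seen. OsICL, the isocitrate lyase of the glyoxylate cycle, had 312 and 441 in XQZ-A/MB, against 59.4 and 154 in D62-A/MB, 129 and 125 in ZS97-A/MB and 143 and 142 in MB. It was above the mean of the other male-sterile lines by 1.75 (SE 0.29, limma adjusted p = 0.0347). Against MB its log2 fold change of 1.38 did not pass (limma adjusted p = 0.0537). The study reports an isocitrate lyase gene as raised only in D62-A/MB, where the labels used here give it in XQZ-A/MB. The doubt over these 2 names, given above, therefore bears on this gene. PDC1, a pyruvate decarboxylase of fermentation, had 12.3 and 17.7 in XQZ-A/MB, against 97.5 and 174 in D62-A/MB, 116 and 39.7 in ZS97-A/MB and 37.7 and 27.7 in MB. The difference was -2.48 (SE 0.42, limma adjusted p = 0.036). The annotated pyrophosphatase gene IPP had 97.5 and 123 in XQZ-A/MB, against 233 and 328 in D62-A/MB, 288 and 544 in ZS97-A/MB and 265 and 438 in MB (difference -1.60, limma adjusted p = 0.0135). OsBiP4 (1.41) and Os5bglu22 (1.12) were above the mean of the other male-sterile lines.

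**Figure D4:**
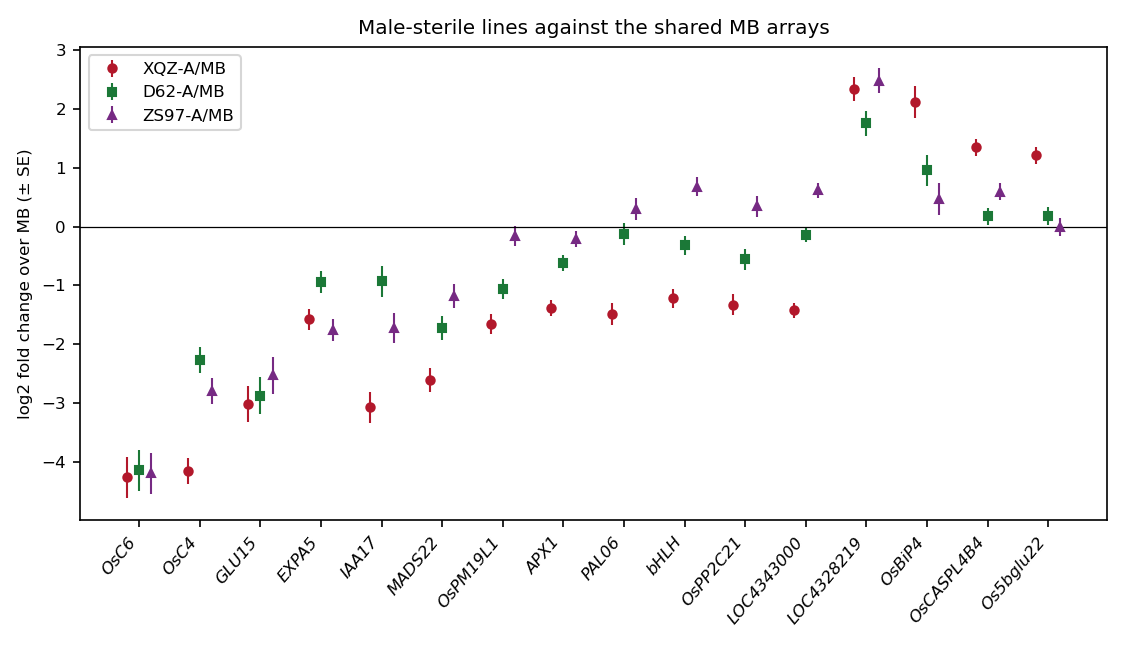
Log2 fold change over MB (± SE from limma) of 16 named genes in XQZ-A/MB (red circles), D62-A/MB (green squares) and ZS97-A/MB (purple triangles), which share the MB arrays. OsC6 lies near -4.27 in XQZ-A/MB and at a similar depth in the other lines, whereas PAL06, at -1.49 in XQZ-A/MB, lies close to 0 in the others.

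Set side by side over the same MB arrays, which the 3 comparisons share, the log2 fold changes were alike for some genes and not for others. OsC6 stood at -4.27 in XQZ-A/MB, -4.15 in D62-A/MB and -4.197 in ZS97-A/MB. GLU15 stood at -3.02 in XQZ-A/MB, -2.87 in D62-A/MB and -2.53 in ZS97-A/MB. APX1 stood at -1.39 in XQZ-A/MB, -0.62 in D62-A/MB and -0.21 in ZS97-A/MB. OsPM19L1 stood at -1.66 in XQZ-A/MB, -1.06 in D62-A/MB and -0.16 in ZS97-A/MB, and OsPM19L1 differed from the mean of the other male-sterile lines by -1.05 (limma adjusted p = 0.0266), while APX1 differed by -0.97 (limma adjusted p = 0.0202), just under 2-fold.

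On a single probe of all 40832, both arrays of XQZ-A/MB were above 32 while the 6 other arrays were at or below 16, a filter chosen after the data were seen. This was LOC4323922, with 47.8 and 106 in XQZ-A/MB, against 4.92 and 10.9 in D62-A/MB, 4.77 and 10.7 in ZS97-A/MB and 4.199 and 9.54 in MB. In the reverse pattern, at or below 16 in XQZ-A/MB and above 32 on the 6 others, there was also 1 probe, in LOC4324856, with 12.9 and 14.6 in XQZ-A/MB, against 34.2 and 44.1 in D62-A/MB, 76.2 and 68.7 in ZS97-A/MB and 101 and 79.2 in MB.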

How the data were processed

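The deposited intensity values (linear) were made by the authors. The labels name MAS5, with no version given, whereas the paper describes Robust Multichip Analysis and then logs. A further deposited table of the same intensities has 98 more control probe sets and was otherwise equal (largest difference 0). The number of arrays limits the precision. Values under 16 were set to 16 and transformed to log2. limma 3.58.1 in R 4.3.3 was fitted to all 8 arrays with line and replicate number. Same-numbered arrays deviated together (r = 0.728 to 0.839 over probes in 6 of 6 pairs of lines). On simulated data, this fit recovered 5% of 2-fold and 56% of 4-fold changes in XQZ-A minus Meixiang B, with 0 false calls. The changes were planted in bright probes and in XQZ-A alone, with independent noise. They were scored on adjusted p without the 2-fold limit, so these figures do not carry over to probes near the floor. Tables and figures used Python 3.11.15, numpy 2.4.6, pandas 2.3.3 and matplotlib 3.10.9. Genes were named through platform annotation and RefSeq: 15295 probes lie in 1 gene (14661 genes), 436 in several and 25101 are not listed. A gene of several probes is represented by the brightest. List members were matched by symbol or synonym. The named genes are the 12 lowest and 12 highest called with a name (6 exist), called list members, the 5 lowest and 5 highest probes and those called against the other male-sterile lines. Members, lists and tests were chosen with earlier results of these data known. Alternatives are given in the closing section.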

Additional observations from a re-analysis of the deposited data

Results flagged for a closer look

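Differences between the male-sterile lines themselves passed limma's test, with the MB arrays cancelling, for 3 probes. XQZ-A/MB minus the mean of D62-A/MB and ZS97-A/MB was -2.16 for probe 16428975, -1.67 for LOC4343000 and 2.86 for probe 16490960 (log2, limma adjusted p = 0.00948 for each). Outlying arrays were not looked for, since each line has 2 arrays.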

How the results depend on the processing

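For XQZ-A/MB minus MB, limma called 0 lower and 0 higher probes without the replicate block (928 at an unadjusted p under 0.05), as with a floor of 32 or with only the XQZ-A/MB and MB arrays and the block, and in the methods' t test. All probes without a filter gave 1 lower and 0 higher, quantile normalization 224 and 35, and an adjusted p under 0.05 gave 649 and 168. For XQZ-A/MB minus the other male-sterile lines, counts of 0 lower and 0 higher came without the replicate block, with all probes, with a floor of 32 and with quantile normalization. No floor gave 10 lower and 5 higher, the mean-variance trend 4 and 3, probes above 16 on at least 4 arrays 3 higher, and an adjusted p under 0.05 gave 155 and 51. Leaving out 1 array gave 0 to 426 lower and 0 to 98 higher against MB, and 0 to 44 lower and 0 to 21 higher against the other lines. The 2-fold counts within both numbers became 326 lower and 65 higher with a floor of 32, and 787 and 250 as fold changes of means with no replicate block. The cause of these changes was not tested. Of the named values, 0 changed sign, 428 of the alternatives kept the call and 539 lost it. Without 1 array, OsC6 stayed between -4.78 and -3.75 (largest adjusted p = 0.0386) and OsC4 between -4.34 and -3.97 (0.0294).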
